A study of Homo sapiens with 372 samples.

Results

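The SR proteins and the heterogeneous nuclear ribonucleoproteins (hnRNPs) are the RNA-binding proteins that steer the choice of splice sites. Here they are the 33 genes whose symbols begin with SRSF or HNRNP, of 9664 genes listed for single A2780 cells. All 33 passed the detection limit, which asks for an E-value above 0 in more than 30% of cells in 1 or more conditions, as did 9655 of the 9664 genes. The authors had already limited the listed genes by such a rule, so this outcome was close to fixed. They comprised 12 SR protein genes (SRSF1 to SRSF12), 8 genes of the hnRNP A/B and D type, HNRNPC, 4 genes of the hnRNP H/F type, 5 genes of the hnRNP K, L, M and R types, and 3 genes of the hnRNP U type.

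A2780 is a human cell line from an ovarian carcinoma. Its cells were left untreated (46 control cells), given 5 nM paclitaxel for 16 h (56 cells) or 48 h (53 cells), given 75 µM celecoxib for 2 h (63 cells) or 16 h (61 cells), or given both drugs at these doses for 16 h (59 cells). Paclitaxel stabilizes microtubules and celecoxib inhibits cyclooxygenase 2. The cells were captured on Fluidigm C1 chips and full-length polyA-tailed RNA was copied by the Smart-seq2 method, with 3 spike-in RNAs in every well. The labels name no replicate cultures, and all cells of a condition carry 1 identifier that no other condition has. A condition is therefore 1 sample, it cannot be told apart from whatever that identifier stands for, and no test between conditions was made. The labels also number the libraries, and in blocks of 96 of these index numbers only 2 conditions were spread over more than 1 block, the 48 h paclitaxel cells (22 and 31 cells in blocks 2 and 4) and the combination cells (34 and 25 cells in blocks 1 and 3). All 46 control cells lay in block 4, which among the treated cells held only those 31 cells given 48 h of paclitaxel. The SD values below are spreads over cells.

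SR proteins carry RNA recognition motifs and a tail rich in arginine and serine. They bind enhancer sequences in exons and help to recruit the U1 and U2 small nuclear ribonucleoproteins, and kinases of the SRPK and CLK families phosphorylate the tail. The hnRNPs coat nascent transcripts and often oppose exon inclusion, HNRNPA1 being the textbook example. Many genes of both families hold a conserved exon that, when included, sends the transcript to nonsense-mediated decay, by which the proteins limit their own level. The values here are sums over all transcripts of a gene, so transcripts with and without such an exon cannot be told apart.

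The E-value is log2(N/10 + 1), where N is the TPM of a gene in a cell after scaling to the most abundant spike-in RNA. It therefore carries the total RNA content of the cell. Relative to the control cells, the median total was 0.504-fold after 16 h and 0.643-fold after 48 h with paclitaxel, 0.591-fold after 2 h and 0.348-fold after 16 h with celecoxib, and 1.40-fold with the combination. For that reason every difference is also given at the same total, where the linear values of each cell were scaled to 1 common total and the E-value was computed again. A gene was counted as higher or lower in a condition when its mean E-value differed by over 1.5-fold, which is 0.58 on the log2 scale. The scale compresses the differences of weakly expressed genes. The median number of genes detected per cell lay between 6126 and 6630 in the 6 conditions, and reads per cell are unknown here. Of 8 epithelial and ovarian carcinoma markers only KRT18 is among the genes listed, with an E-value above 0 in 23.9% of control cells, and of 11 markers of blood, endothelial, liver and stromal cells only COL1A2 is, in 17.4% of control cells. The other markers were not analysed here, and the authors' filter on detection can leave genes off the list.

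TPM is per transcript length, so levels of different genes can be set side by side. In the control cells HNRNPC had the highest mean E-value, 7.21 ± 0.62 (SD over 46 cells). Its protein binds uridine tracts as a tetramer and packs nascent transcripts. SRSF7 (7.03 ± 0.88) and SRSF3 (7.00 ± 0.76), SR proteins that shuttle to the cytoplasm and link splicing to mRNA export, came next with HNRNPA1 (6.99 ± 0.71), the closely related HNRNPA2B1 (6.74 ± 0.79) and SRSF9 (6.57 ± 0.67), a relative of SRSF1. The order among these 6 lay within the spread over cells. In linear values they held 59.4% of the summed level of the 33 genes in the control cells, and HNRNPC alone held 11.7%.

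The other SR protein genes covered a wide range in the control cells. SRSF2, which marks nuclear speckles, had a mean E-value of 5.68, SRSF5 5.51, SRSF10, a splicing repressor in its dephosphorylated form, 5.14 and SRSF11 4.36. Lower levels were found for SRSF1, the founding member of the family, at 2.86, SRSF4 at 2.37, SRSF8 at 1.92, SRSF6 at 1.86 and SRSF12 at 0.56. Among the hnRNP A/B and D genes HNRNPDL stood at 5.81 and HNRNPD at 4.35, both coding for proteins that bind AU-rich RNA, followed by HNRNPAB at 3.72, HNRNPA3 at 2.86, HNRNPA1L2 at 0.71 and HNRNPA0 at 0.49. The hnRNP H/F proteins bind runs of guanine, and their genes stood at 5.64 (HNRNPH1), 4.93 (HNRNPH3), 4.37 (HNRNPF) and 3.04 (HNRNPH2). HNRNPR stood at 5.27, HNRNPM at 4.01, HNRNPL at 3.81, HNRNPK, which binds cytosine-rich RNA, at 3.64, and HNRNPLL at 2.47. HNRNPU, also known as scaffold attachment factor A, stood at 3.91, HNRNPUL1 at 2.10 and HNRNPUL2 at 0.20.

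Some of these values may hold reads of other genes. HNRNPA1L2 is an intronless copy of HNRNPA1 and SRSF8 an intronless relative of SRSF2, so the estimation step could have split reads between them. Smart-seq2 libraries do not mark strand, and by GENCODE version 44 some exon bases are shared with genes on the opposite strand. The highest shares were 53.6% for HNRNPA3 (with NFE2L2), 43.6% for SRSF9 (with GATC), 27.7% for SRSF2 (with MFSD11) and 19.0% for HNRNPU. HNRNPA2B1 followed at 12.5% (with CBX3 and NFE2L3), and the other members had lower shares or none. In these stretches the sense and antisense gene cannot be told apart.

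On the deposited scale the family was lower in each of the 4 single-drug conditions than in the control. After 16 h with paclitaxel 23 of 33 genes were past the limit downward, against 37.3% of all genes, and at 48 h 25 of 33, against 26.6%. After 2 h with celecoxib 19 of 33 were lower, against 25.7%, and at 16 h 27 of 33, against 43.9%. No member was past the limit upward in these conditions, as were 0.0932%, 0.922%, 1.12% and 0.383% of all genes in the same order. The median difference of the members was −0.83, −0.83, −0.68 and −1.60, beside −0.41, −0.26, −0.26 and −0.48 over all genes. Members are expressed above most genes, and higher genes show larger differences on this scale. Among the 3154 genes with a mean E-value above 2 over the 6 conditions, 24 of them members, the counts were 19 of 24 members beside 74.2% of genes after 16 h with paclitaxel, 22 of 24 beside 57.5% at 48 h, 16 of 24 beside 53.4% after 2 h with celecoxib and 24 of 24 beside 85.1% at 16 h. All comparisons share the same control cells. Of the 33 members, 15 were lower in all 4 single-drug conditions, against 18.5% of all genes, and above a mean E-value of 2 these were 14 of 24 members beside 43% of genes. HNRNPA0, HNRNPA1L2, HNRNPUL2 and SRSF12 were lower in none of them. For HNRNPA0, HNRNPUL2 and SRSF12 that outcome was fixed, since their mean E-value in the control was itself under the limit. The calls of HNRNPA1, SRSF9 and HNRNPLL after 48 h with paclitaxel were lost in index block 4 alone, the block of the control cells, at −0.49, −0.54 and −0.54.

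With the combination few members were past the limit on the deposited scale. Downward, 2 of 33 members were lower than in the control (HNRNPDL and HNRNPM), against 1.76% of all genes, and 5 were higher (HNRNPC, HNRNPH2, HNRNPH3, SRSF8 and SRSF11), against 30.4%. The call of HNRNPM, at −0.60, was lost in index block 3 alone, at −0.46. The median difference of the members was 0.20 and that of all genes 0.33. Above a mean E-value of 2, 4 of 24 members were higher beside 49.7% of genes. Set against paclitaxel alone for 16 h, 23 of 33 members were higher with both drugs, against 62.5% of all genes, and set against celecoxib alone for 16 h, 28 of 33, against 66%.

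**Figure D1:**
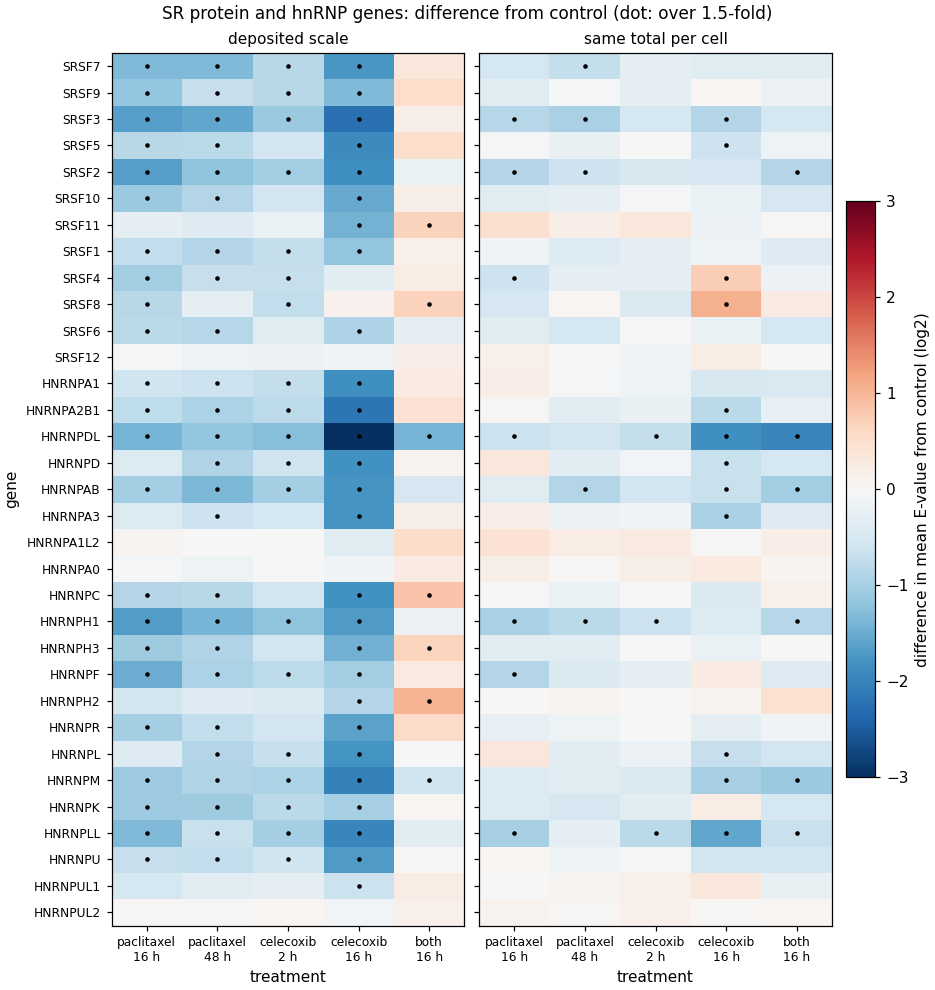
Mean E-value minus that of the control (log2, colour) for the 33 genes (rows, ordered by protein type and level) in 5 treatments (columns), on the deposited scale (left) and at the same total per cell (right). A dot marks a difference of over 1.5-fold. The single-drug columns are blue for most genes on the left, whereas fewer genes have a dot on the right.

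HNRNPC showed a first pattern, a difference that was under the limit once the totals were made equal. It had a median E-value of 7.27 in the control cells (lowest 5.39, highest 8.23), 6.27 after 16 h with paclitaxel (4.83 to 9.05), 6.40 at 48 h (4.55 to 7.60), 6.55 after 2 h with celecoxib (4.33 to 8.35), 5.41 after 16 h (3.35 to 6.76) and 8.09 with the combination (6.65 to 9.81). The ranges overlapped between all conditions, but all 61 cells given 16 h of celecoxib lay below the control median and 53 of 59 combination cells above it. The difference in mean E-value was −0.87, −0.83, −0.58 and −1.82 in the single-drug conditions and 0.86 with both drugs. Scaled to the same total these became −0.06, −0.20, −0.01, −0.44 and 0.16, none past the limit.

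SRSF3, whose protein also regulates the export of intronless transcripts, showed the second pattern, a difference that remained at the same total. Its median E-value was 7.17 in the control cells (4.32 to 8.13), 5.60 after 16 h with paclitaxel (1.64 to 8.55), 5.76 at 48 h (0.00 to 7.37), 5.93 after 2 h with celecoxib (3.33 to 8.38), 4.80 after 16 h (2.57 to 6.31) and 7.23 with the combination (4.09 to 9.61). Again no cell given 16 h of celecoxib reached the control median, while the combination cells lay on both sides of it, 26 below and 33 above. The difference from the control at the same total was −0.86 and −0.97 after 16 and 48 h with paclitaxel and −0.88 after 16 h with celecoxib, all past the limit, and −0.54 after 2 h with celecoxib and −0.52 with the combination.

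SRSF7 resembled SRSF3 on the deposited scale, with medians of 7.24 in the control (4.77 to 8.27), 5.84 and 5.81 after 16 and 48 h with paclitaxel, 6.44 and 5.31 after 2 and 16 h with celecoxib and 7.31 with the combination (5.78 to 9.71). Only 48 h of paclitaxel was past the limit at the same total, with a difference of −0.72. That call was lost in the cells of library index block 2 alone, where the difference was −0.43. HNRNPA1, HNRNPA2B1 and SRSF9 had differences of −1.84, −2.17 and −1.33 after 16 h with celecoxib on the deposited scale. Scaled to the same total they were −0.47, −0.82 and 0.05, so that the sign turned for SRSF9 and only HNRNPA2B1 was past the limit.

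**Figure D2:**
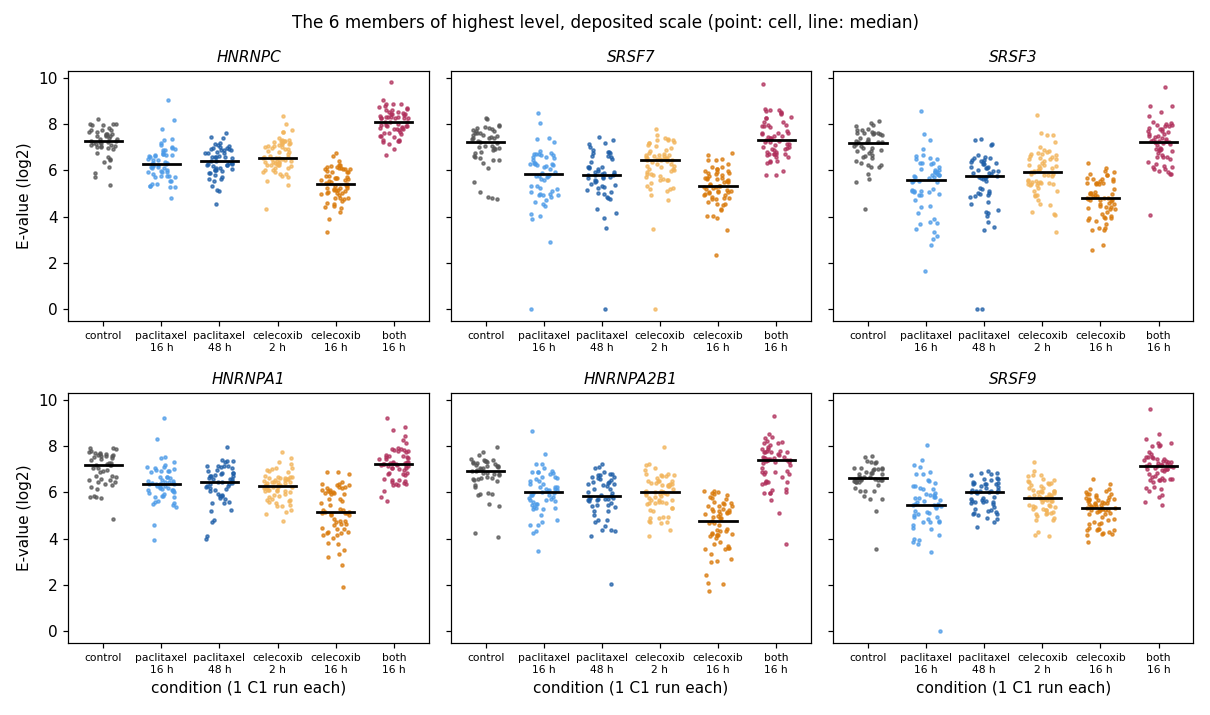
E-value (log2, deposited scale) of the 6 genes with the highest mean level in each cell (point), by condition, with the median as a line. In all 6 panels every cell given 16 h of celecoxib lies below the control median, and the combination medians lie above those of the control.

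The share of the transcriptome that the 33 genes took up does not depend on the spike-in. It is the sum of their linear values over the sum of all genes listed in the same cell. In the control cells the share had a median of 0.897% (lowest cell 0.583%, highest 1.17%). It was 0.785% (0.572 to 1.01%) after 16 h and 0.772% (0.310 to 1.08%) after 48 h with paclitaxel, 0.799% (0.526 to 1.23%) after 2 h and 0.711% (0.481 to 0.933%) after 16 h with celecoxib, and 0.713% (0.506 to 1.13%) with the combination. The ranges overlapped, yet the control median lay above 46 of 56, 47 of 53, 49 of 63, 59 of 61 and 52 of 59 cells in the same order. The share was thus lower in the condition of the highest total and in that of the lowest total by a similar amount, with ratios of medians to the control of 0.796 and 0.793. Within the conditions the share and the log2 total had a Pearson r between −0.32 (63 cells given 2 h of celecoxib) and 0.24 (46 control cells). These describe cells that share 1 identifier and are not replicates.

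**Figure D3:**
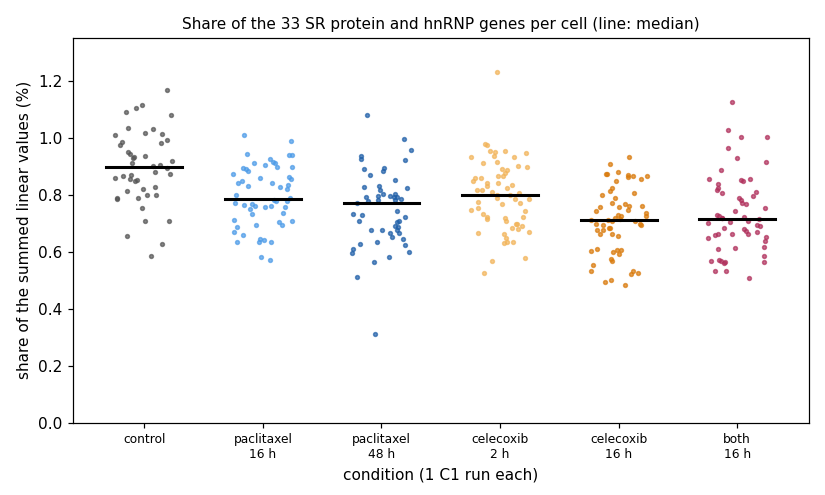
Share of the summed linear values of a cell (percent) taken by the 33 SR protein and hnRNP genes, by condition. Points are cells and lines are medians, which are 0.897% in the control and between 0.711 and 0.799% in the treated cells.

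The protein types contributed unequally to this. The 12 SR protein genes took 0.395% in the control and 0.296, 0.305, 0.339, 0.333 and 0.300% in the 5 treatments, in the order paclitaxel 16 h, paclitaxel 48 h, celecoxib 2 h, celecoxib 16 h and combination. The 8 hnRNP A/B and D genes took 0.246% in the control and 0.251, 0.215, 0.210, 0.155 and 0.167% in the treatments. The SR protein share was thus lowest after 16 h with paclitaxel, where the hnRNP A/B and D share was close to that of the control, and the latter was lowest in both conditions given 16 h of celecoxib. For HNRNPC the share was 0.103% in the control, 0.0804% after 16 h with celecoxib and 0.117% with the combination. HNRNPC made up 15.9% of the summed level of the family in the combination cells, beside 11.7% in the control.

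At the same total per cell fewer members were past the limit than on the deposited scale. The numbers higher and lower than the control were 0 and 7 of 33 after 16 h with paclitaxel, against 1.62% and 11.7% of all genes. They were 0 and 5 after 48 h with paclitaxel, against 4.03% and 6.96%. At 2 h of celecoxib they were 0 and 3, against 3.78% and 9.53%, and at 16 h 2 and 10, against 8.31% and 9.05%. With the combination they were 0 and 6, against 7.05% and 6.79%. The median difference of the members was −0.25, −0.30, −0.15, −0.30 and −0.38 in the same order, while that of all genes lay between −0.08 and 0.02. Above a mean E-value of 2 the lower calls were 5 of 24 members beside 21.5% of genes after 16 h with paclitaxel, 5 of 24 beside 14% at 48 h, 2 of 24 beside 19.3% after 2 h with celecoxib, 9 of 24 beside 19.7% after 16 h and 5 of 24 beside 13% with the combination. Against that background, the share of members was near it after 16 h with paclitaxel and below it after 2 h with celecoxib. It was above that background after 48 h with paclitaxel, after 16 h with celecoxib and with the combination. Of the 33 members, 18 were lower in none of the 5 treatments at the same total, against 78.7% of all genes, and the 18 include the 3 genes whose control level was under the limit. Above a mean E-value of 2 these were 11 of 24 members beside 58.7% of genes.

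HNRNPDL had the largest difference of the family. Its median E-value at the same total was 5.68 in the control cells (3.65 to 6.41), 5.15 after 16 h (0.00 to 6.47) and 5.03 after 48 h with paclitaxel (2.84 to 6.60), 4.99 after 2 h (1.05 to 6.51) and 4.01 after 16 h with celecoxib (0.00 to 5.87), and 3.91 with the combination (0.00 to 6.13). In both conditions given 16 h of celecoxib nearly all cells were under the median of the control, 56 of 61 with the drug alone and 58 of 59 with both drugs. The difference in mean E-value at the same total was −0.64, −0.55, −0.72, −1.83 and −1.97 in the 5 treatments, past the limit in 4 of them. It was −3.01 after 16 h with celecoxib and −1.39 with the combination on the deposited scale. With the combination the difference at the same total was −1.75 over the 34 cells of index block 1 and −2.27 over the 25 of block 3. Set against paclitaxel alone for 16 h it was −1.33, and set against celecoxib alone for 16 h −0.14.

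HNRNPLL, a regulator of alternative splicing best known from T cells, was past the limit in 4 treatments as well. Its median at the same total was 2.58 in the control cells (0.00 to 4.69), 0.64 after 16 h (0.00 to 4.21) and 2.24 after 48 h with paclitaxel (0.00 to 4.51), 1.06 after 2 h (0.00 to 4.02) and 0.00 after 16 h with celecoxib (0.00 to 4.19), and 1.82 with the combination (0.00 to 4.51). The gene had an E-value above 0 in 89.1% of control cells (exact Clopper-Pearson 95% interval 76.4 to 96.4%, counting error only) and in 34.4% of the cells given 16 h of celecoxib (22.7 to 47.7%). Its difference at the same total was −0.99, −0.30, −0.81, −1.57 and −0.67. The median number of genes detected was 6630 in the control and 6329 after 16 h with celecoxib. It was 6126 after 16 h with paclitaxel, 6158 after 2 h with celecoxib and 6129 with the combination. There HNRNPLL was detected in 60.7, 63.5 and 62.7% of cells. Fewer detected cells and a lower level per cell cannot be told apart here, and the part of depth was not tested. The call for the combination was lost in index block 3 alone, at −0.47.

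HNRNPH1 had a difference at the same total of −0.97 at 16 h and −0.81 after 48 h with paclitaxel, −0.65 at 2 h and −0.41 after 16 h with celecoxib and −0.85 with the combination. Its median was 5.49 in the control cells (4.17 to 6.61), 4.91 (0.00 to 7.18) and 4.72 (0.00 to 6.42) with paclitaxel, 4.88 (2.76 to 6.28) and 5.26 (0.19 to 6.56) with celecoxib, and 4.71 with the combination (0.43 to 6.80). The condition with the lowest total, 16 h of celecoxib, was here the nearest to the control. The related HNRNPF was past the limit after 16 h with paclitaxel, at −0.88, and HNRNPH2 and HNRNPH3 in no treatment. With the combination HNRNPH2 had the highest difference of the family, 0.47 at the same total and 1.05 on the deposited scale. HNRNPH2 shares exon bases with RPL36A-HNRNPH2 on the same strand, so reads could have been split between them.

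Members with 3 calls at the same total were SRSF3, SRSF2 and HNRNPAB. SRSF2 had a median of 5.59 in the control cells (2.44 to 6.44), 4.70 after 16 h with paclitaxel (2.75 to 6.11) and 4.75 with the combination (3.15 to 6.24). Its difference was −0.88 at 16 h and −0.61 after 48 h with paclitaxel, −0.49 and −0.51 with celecoxib and −0.88 with the combination. With both drugs 56 of 59 cells were under the median of the control. The call after 48 h with paclitaxel was lost in index block 4 alone, at −0.58. HNRNPAB, 9.25% of whose exon bases lie opposite PHYKPL, had differences of −0.36, −0.87, −0.58, −0.66 and −1.05 in the order above. With the combination 53 of 59 cells were below its control median of 3.58.

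HNRNPM, which binds GU-rich RNA, had a median at the same total of 4.02 in the control cells (1.18 to 5.62), 3.02 after 16 h with celecoxib (0.00 to 5.24) and 2.73 with the combination (0.00 to 5.52). The difference was −0.99 and −1.12 in these conditions, and −0.41, −0.37 and −0.44 after 16 and 48 h with paclitaxel and 2 h of celecoxib. The other members lower after 16 h with celecoxib were HNRNPA3 (−0.97), HNRNPA2B1 (−0.82), HNRNPL (−0.70), HNRNPD (−0.66) and SRSF5 (−0.62). Of the 8 hnRNP A/B and D genes 5 were lower there, of the 5 hnRNP K, L, M and R genes 3, of the 12 SR protein genes 2, and of the hnRNP H/F and U genes 0, against 9.05% of all genes and 19.7% of those with a mean E-value above 2.

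SRSF4 and SRSF8 were the only members higher after 16 h with celecoxib at the same total, where 8.31% of all genes were higher. SRSF8 had a median at the same total of 1.69 in the control cells (0.00 to 4.74), 1.03 and 1.91 after 16 and 48 h with paclitaxel, 0.67 and 3.04 after 2 and 16 h with celecoxib (highest 5.17 in the latter), and 2.22 with the combination. SRSF4 had medians of 2.25, 1.71, 2.11, 1.97, 3.10 and 2.28 in the order control, paclitaxel 16 h, paclitaxel 48 h, celecoxib 2 h, celecoxib 16 h and combination. At 16 h of celecoxib 48 of 61 cells lay above the control median for SRSF8 and 49 of 61 for SRSF4. The difference in mean E-value was 1.07 for SRSF8 and 0.74 for SRSF4 at the same total, but 0.12 and −0.32 on the deposited scale, so that the direction for SRSF4 turned with the scale. The combination did not share this at the matched time, its difference from celecoxib alone being −0.84 for SRSF8 and −0.93 for SRSF4.

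**Figure D4:**
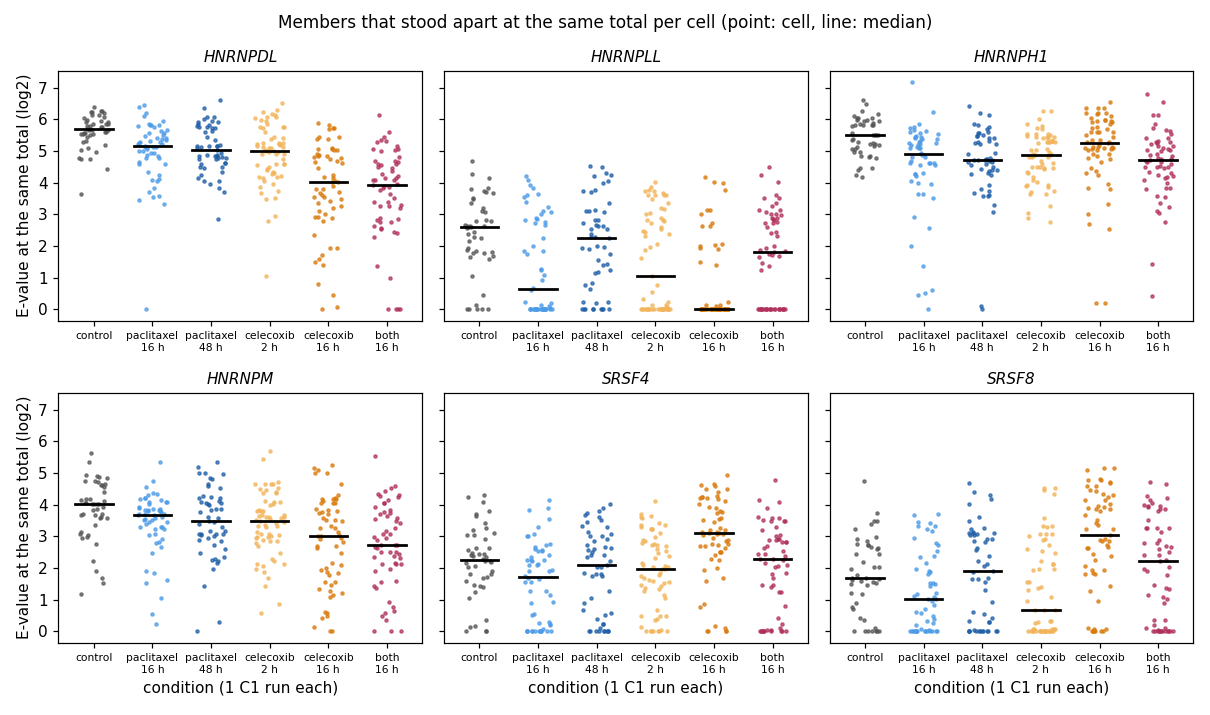
E-value at the same total per cell (log2) of 6 genes in each cell (point), by condition, with the median as a line. HNRNPDL and HNRNPM are lowest in the conditions given 16 h of celecoxib, HNRNPLL has a median of 0 with celecoxib alone for 16 h, and SRSF4 and SRSF8 are highest there.

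At 16 h the combination could be set beside each drug alone. Scaled to the same total, 1 member was higher and 8 lower than with paclitaxel alone, against 11.6% and 1.95% of all genes. The higher one was SRSF8 (0.75), and the 8 lower ones were HNRNPDL (−1.33), HNRNPL (−0.92), HNRNPD (−0.88), HNRNPM (−0.70), HNRNPAB (−0.68), HNRNPA1 (−0.67), HNRNPU (−0.63) and HNRNPA3 (−0.59). No SR protein gene was among them. All 8 had a mean E-value above 2 over the 6 conditions. The share among genes above that level was not set beside the counts of these 2 comparisons. Against celecoxib alone 2 members were higher and 4 lower, against 6.03% and 5.22% of all genes. HNRNPLL (0.90) and HNRNPC (0.60) were higher, and SRSF4 (−0.93), SRSF8 (−0.84), HNRNPK (−0.74) and HNRNPF (−0.61) were lower.

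SRSF11, which associates with U2 auxiliary factor, had the highest difference of the family after 16 h with paclitaxel and after 2 h with celecoxib at the same total, 0.48 and 0.35, neither past the limit. The copy HNRNPA1L2 came next with 0.43 and 0.27. HNRNPA1 itself had 0.21 and −0.15 in these conditions.

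**Figure D5:**
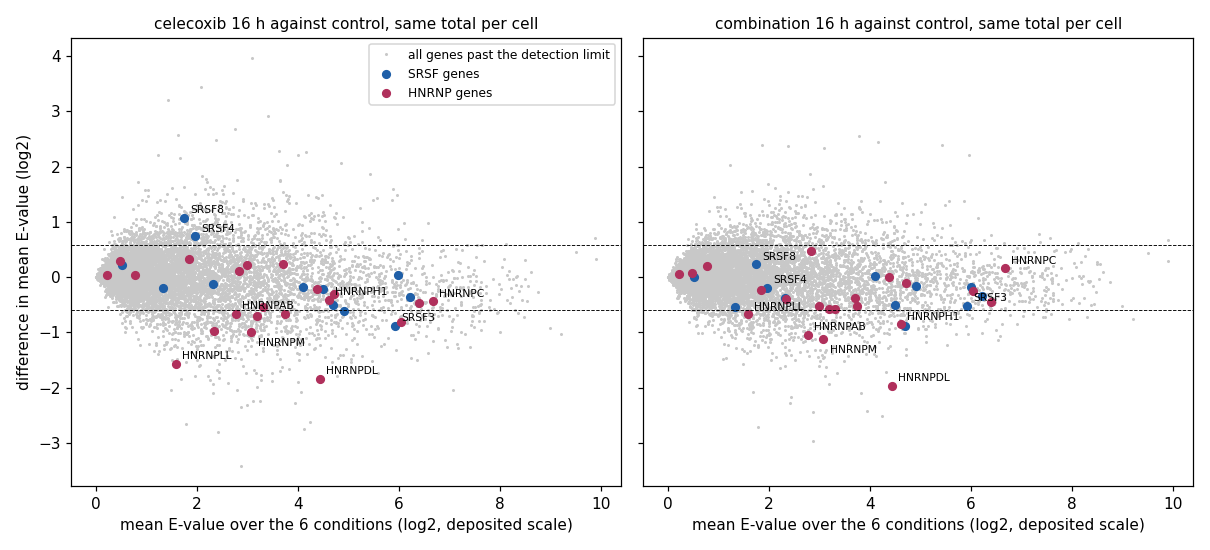
Mean E-value minus that of the control at the same total (log2, vertical) against the mean E-value over the 6 conditions (log2, deposited scale, horizontal), for 16 h of celecoxib (left) and the combination (right). Grey points are all genes past the detection limit, coloured points the members, and dashed lines the 1.5-fold limit. HNRNPDL lies at −1.83 and −1.97, at the lower edge of the genes of like level.

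The promoter windows of the members with the lowest and the highest difference after 16 h with celecoxib, HNRNPDL and SRSF8, and of SRSF3, the abundant SR protein gene that stayed lower at the same total, are shown to set their base composition side by side. They are from RefSeq on GRCh38.p14, run 5′ to 3′ on the strand of the gene from 250 bases before the start to 50 bases after it, and lie at chr4:82430413-82430712 (minus strand), chr11:95066669-95066968 (plus strand) and chr6:36594112-36594411 (plus strand). Capitals mark matches to the motifs searched on both strands, the CCAAT box (CCAAT), the GC box (GGGCGG), the TATA box (TATAAA), the E-box (CACGTG), the CRE (TGACGTCA), an ETS site (CCGGAAG) and a YY1-like motif (ATGGCGG).
HNRNPDL: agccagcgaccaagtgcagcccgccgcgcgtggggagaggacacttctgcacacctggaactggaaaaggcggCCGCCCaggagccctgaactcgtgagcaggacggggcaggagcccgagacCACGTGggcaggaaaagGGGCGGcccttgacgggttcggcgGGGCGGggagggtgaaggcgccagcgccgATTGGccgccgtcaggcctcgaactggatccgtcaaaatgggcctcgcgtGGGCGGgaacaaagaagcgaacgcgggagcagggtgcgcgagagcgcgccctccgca
SRSF8: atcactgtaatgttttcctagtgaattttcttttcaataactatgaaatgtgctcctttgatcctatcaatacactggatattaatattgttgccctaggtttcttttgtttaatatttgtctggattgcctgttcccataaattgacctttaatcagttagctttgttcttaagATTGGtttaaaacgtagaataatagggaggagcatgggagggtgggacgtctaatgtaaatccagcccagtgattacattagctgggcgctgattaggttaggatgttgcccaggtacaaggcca
SRSF3: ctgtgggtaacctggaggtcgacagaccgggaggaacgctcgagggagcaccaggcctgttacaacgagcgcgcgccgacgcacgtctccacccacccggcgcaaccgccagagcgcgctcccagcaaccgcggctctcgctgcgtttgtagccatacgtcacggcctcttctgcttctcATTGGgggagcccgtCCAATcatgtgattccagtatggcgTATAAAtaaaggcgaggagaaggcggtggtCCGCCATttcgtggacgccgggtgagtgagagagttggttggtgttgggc

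The HNRNPDL window had 69.7% G and C and 34 CG dinucleotides, with 4 GC boxes, an E-box and a CCAAT box on the opposite strand 57 bases before the start. The SRSF3 window had 62.3% G and C, a CCAAT box on each strand and a TATA box whose first base lay 30 bases before the start. It also held a YY1-like motif on the opposite strand, at bases 1 to 7 from the start. The SRSF8 window had 38% G and C, 3 CG dinucleotides and only a CCAAT box, the lowest G and C share of the 31 members for which a window was given, whose median was 65%, as for all genes listed. No motif overlapped another in these windows. Over all 45 windows of the members, the CCAAT box was found in 48.9% (35.7% of the 11001 windows of all genes listed), the GC box in 62.2% (67.8%), the TATA box in 13.3% (5.75%), the E-box in 17.8% (9.70%), the ETS site in 11.1% (19.0%), the YY1-like motif in 15.6% (10.7%) and the CRE in 0 windows (3.12%). Windows of 1 gene can overlap, and a match describes letters, not a bound site.

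Over the cells of a condition most members varied less than other genes of like level. The SD of a member over cells was divided by the median SD of the 200 genes nearest in mean E-value. On the deposited scale the median ratio was between 0.797 and 0.918 in the 6 conditions, and 23 to 26 of 33 members were below 1. The lowest ratio in each condition was that of HNRNPA0 or HNRNPA1L2, genes of low level, between 0.478 and 0.555. Of the genes of highest level, HNRNPA2B1 (1.11) and SRSF3 (1.07) were above 1 in the control cells. HNRNPC (0.87), SRSF9 (0.92) and HNRNPA1 (0.99) were below 1 there. SRSF7 was among the exceptions, with a ratio of 1.24 in the control cells and 1.43 after 16 h with paclitaxel, where its E-values ran from 0.00 to 8.49. SRSF3 had the highest ratio after 48 h with paclitaxel, 1.64, and HNRNPA1 after 16 h with celecoxib, 1.32.

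The members also varied together over cells, and less so at the same total. On the deposited scale the median Pearson r over the 276 pairs of the 24 members with a mean E-value above 2 was 0.47 in the control cells and 0.20 after 16 h with celecoxib, the highest and lowest of the 6 conditions. Over the pairs of 78 genes of the other splicing lists it was 0.36 and 0.18 in these conditions. Over the pairs of all 3154 genes above that level it was 0.24 and 0.14. All pairs share the spike-in scaling and the depth of the cell. The total RNA of a cell and error in that scaling cannot be told apart here. At the same total the median r was between 0.03 and 0.15, beside 0.01 to 0.04 over the pairs of 78 genes of the other splicing lists. The pair with the highest mean r at the same total was SRSF3 and SRSF2, with r between 0.28 (63 cells given 2 h of celecoxib) and 0.54 (53 cells given 48 h of paclitaxel), and between 0.53 and 0.75 on the deposited scale. SRSF7 and SRSF2 reached 0.71 in the 46 control cells and lay between 0.13 and 0.36 in the 5 treatments.

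Other splicing genes give the setting at the same total. Of all genes 11.7, 6.96, 9.53, 9.05 and 6.79% were lower in the 5 treatments in the order above. The shares that were higher were 1.62, 4.03, 3.78, 8.31 and 7.05%. Above a mean E-value of 2 the shares that were lower were 21.5, 14, 19.3, 19.7 and 13%. Of 15 Sm and LSm genes, which form the rings on the small nuclear RNAs, 0, 1, 0, 9 and 2 were lower than the control in the 5 treatments in the order above and none was higher. SNRPD1 had differences of −1.11 after 16 h with celecoxib and −0.76 with the combination. Of 29 genes for proteins of the U1, U2 and U4/U6.U5 particles 10, 11, 9, 7 and 5 were lower and 1, 0, 0, 1 and 0 higher, with SNRPA, a U1 protein, at −1.50 after 16 h with celecoxib and USP39, a tri-snRNP protein, at −0.72 with the combination. Of 26 genes for SR-related proteins 3, 1, 2, 2 and 2 were lower and 1, 0, 1, 0 and 1 higher. The former held U2AF1, the small subunit of U2 auxiliary factor, at −0.69 after 16 h with celecoxib and TRA2B, a close relative of the SR proteins, at −0.94 with the combination.

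The same shares of all genes stand beside the next lists. Of 15 hnRNP genes under other symbols 3, 2, 1, 4 and 3 were lower and 0, 2, 1, 1 and 0 higher. SYNCRIP, the closest relative of HNRNPR, was at −0.91 with the combination, and CIRBP, a cold-inducible RNA-binding protein, was higher after 16 h with celecoxib, at 0.92. Of 16 genes for SR kinases, phosphatases, import receptors and methyltransferases 3, 1, 3, 2 and 1 were lower and 0, 0, 0, 2 and 0 higher, with PRMT5, an arginine methyltransferase that acts on Sm proteins, at −0.80 after 16 h with celecoxib and −0.86 with the combination. Of 15 nonsense-mediated decay and exon junction factors 2, 2, 2, 3 and 2 were lower and 0, 0, 2, 3 and 0 higher, with MAGOHB, an exon junction protein, at −1.17 after 16 h with celecoxib.

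A lower share of the transcriptome than in the control was not particular to the 33 genes. The ratio of their median share to that of the control was 0.875, 0.861, 0.891, 0.793 and 0.796 in the 5 treatments, in the order above. For the snRNP protein genes it was 0.970, 0.849, 0.877, 0.853 and 0.842, and for the decay and exon junction factors 0.938, 0.764, 0.992, 0.788 and 0.777. The kinase, phosphatase, import and methyltransferase genes were between 0.804 and 0.949 and the hnRNP genes under other symbols between 0.849 and 0.944. The Sm and LSm genes were at 1.19 after 16 h with paclitaxel and at 0.730 after 16 h with celecoxib. The SR-related genes lay on both sides, between 0.946 and 1.15.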

How the data were processed

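Single A2780 cells were measured by Smart-seq2 on Fluidigm C1 chips. Per the methods and the submitters' processing notes, the authors removed adapters (Trim Galore), aligned to hg38 transcripts of GENCODE version 28 plus 3 spike-in sequences (Bowtie2) and quantified TPM (RSEM 1.3.0). They scaled each cell to its most abundant spike-in RNA, left out cells whose housekeeping genes were poorly detected, and deposited E = log2(N/10 + 1) for 338 cells on this log2 scale. Groups came from the labels. Reads per cell are unknown. Doublets were not called.

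N was recovered from E, and scaled to the mean total over cells for values at the same total. Mean E-values were compared with a limit of 1.5-fold, with no test, since cells are not replicates. The steps were tested on simulated data. The members and lists were chosen with earlier results of these data known. Named in full were the 6 members of highest level, the 2 highest and 2 lowest differences per treatment at the same total among members with an E-value above 0 in 30% or more of cells of each condition compared, and members past the limit in at least 3 treatments. From each list the gene with the largest absolute difference after 16 h with celecoxib and with the combination was named.

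Alternatives were medians over cells, a pseudocount of 1 instead of 10 normalized TPM, ratios of linear means, a detection limit of 50% of cells or none, each index block alone, cells without wells noted as 0 or debris, a 2-fold limit, and other common totals. No protein table was used here. The versions were Python 3.11.15, pandas 2.3.3, numpy 2.4.6, matplotlib 3.10.9 and scipy 1.17.1. A gene of the pathway lists that the naming rule picked is not reported here.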

Additional observations from a re-analysis of the deposited data

How the results depend on the processing

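Of 213 counts of members recomputed under the alternatives, 178 stayed within 1.5 times the value reported and 35 did not. No called difference of a named member changed direction in 1071 recomputed differences, of which 32 were no longer past the limit and 26 newly past it. All 121 recomputed medians of the members kept their direction and their side of the limit, and all 16 recomputed shares moved by less than 1 SD over cells. At a 2-fold limit the members lower on the deposited scale were 15, 7 and 6 after 16 and 48 h with paclitaxel and 2 h of celecoxib, and 1 was higher with the combination. At the same total that limit left 0, 0, 0, 2 and 3 lower in the 5 treatments and 1 higher after 16 h with celecoxib, 0 higher and 1 lower for the combination against paclitaxel, and 0 and 0 against celecoxib. Ratios of linear means gave 8 higher with the combination on the deposited scale, 4, 2, 0 and 6 lower in the single-drug conditions at the same total, and 1 higher for the combination against celecoxib. A pseudocount of 1 gave at the same total 1 higher after 16 h with paclitaxel, 9 lower at 48 h, 5 lower after 2 h with celecoxib, and 1 higher and 12 lower with the combination. It gave 5 higher against paclitaxel, and 4 higher and 7 lower against celecoxib. Scaling to the same median over genes detected in every cell gave 5 lower after 16 h with celecoxib, 2 higher and 4 lower for the combination against paclitaxel, and 1 higher against celecoxib. Medians over cells gave 2 higher against paclitaxel, and index block 3 alone 2 higher and 5 lower. The share of all genes was not set beside these recomputed counts. They show only how the counts of members moved with the processing. The cause was not tested. The common total at the median over cells, the comparison limited to a mean E-value above 2 and the mean over cells for the share were chosen after seeing the data. The depth, known only as genes detected, limits the genes of low level, such as HNRNPLL, SRSF4 and SRSF8, and the single sample per condition limits all comparisons.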
